A study of Mus musculus with 3 samples.

Results

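The genes of vascular endothelial growth factor (VEGF) signaling were examined in endothelial cells of the adult mouse renal medulla. The set held 9 of the 19938 genes measured, namely the receptors Kdr, Flt1 and Flt4, the neuropilins Nrp1 and Nrp2, and the ligands Vegfa, Vegfb, Vegfc and Pgf. The genes were listed by name, and each was represented by its probe set that the platform annotation pairs with 1 gene. Every member had exactly 1 such probe set and none that it shared with another gene. The cells came from male FVB/N mice with the transgene Tg(TIE2GFP)287Sato, in which the Tie2 (Tek) promoter drives green fluorescent protein. Medullas were digested with collagenase and the fluorescent cells were sorted. There were 3 arrays of this 1 group, each from a pool of 2 adult kidneys, and no other compartment, genotype or treatment was analysed here. The Tie2 promoter is also active in some blood cells, and all mice were transgenic, so the sort defines the population. The study describes its samples as biologically independent. The p-values rest on the spread between these 3 pools, moderated by a variance estimated from other genes, and cover no wider variation.

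VEGF ligands are secreted factors that bind receptor tyrosine kinases on endothelial cells and control their survival, sprouting and permeability. In the kidney, podocytes and tubule cells are known producers of VEGF-A, and the neighboring capillaries depend on it for their fenestrae. Neuropilins are coreceptors that bind both VEGF ligands and class 3 semaphorins.

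Levels are given as deposited, on a log2 scale, or turned back into linear units. They were set against a pair of limits. The first was 100 units (log2 6.64), the value of the filter in the study. No source states whether that filter used the same scale. The second was an approximate background, the 95th percentile over 1243 probe sets for olfactory, vomeronasal and taste receptors (log2 7.95, 246.9 units, from their mean levels). Probes differ in affinity, so the order of different genes on either scale is not an order of transcript abundance. Both limits were treated as fixed values, so the p-values do not cover the spread among the background probe sets. In sorted bulk cells, fewer cells of a type and less RNA per cell cannot be told apart.

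All 9 genes were above 100 units by limma (adjusted p from 1.18e-05 to 0.000108 over all genes), but 83.0% of all genes were called above that limit as well. In all arrays the 9 were at or over 100 units, as were 85.4% of all genes. At the background limit all 5 receptors and neuropilins were called above, whereas 2 of the 4 ligands were above, 1 was not called and 1 was below. Of all genes, 49.6% were called above and 38.0% below the background limit. The 7 members called above were at or over it in every array, as were 54.8% of all genes. The median distance from this limit was 1.54 log2 units for the 9 members and 0.20 for all genes. The members were chosen with these levels known, so the counts describe the set and do not test it.

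**Figure D1:**
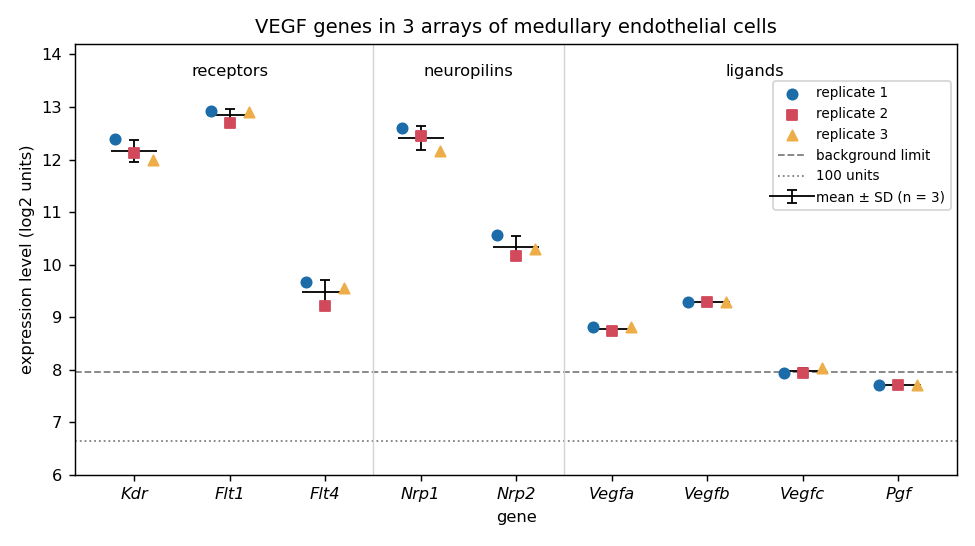
Expression level (y axis, log2 units) of each VEGF gene (x axis), with 1 symbol per array and the mean ± SD over 3 arrays in black. The dashed line is the background limit (7.95) and the dotted line 100 units (6.64). All receptors and neuropilins lie above both lines, Vegfc lies on the dashed line and Pgf (7.71) between the lines.

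Among the receptors, Kdr (VEGFR2, the main signaling receptor for VEGF-A) had log2 levels of 12.40, 12.12 and 11.99 in replicates 1, 2 and 3. Replicate 1 was the highest and replicate 3 the lowest, a range of 1.33-fold. The mean of 12.17 ± 0.21 (SD, n = 3) lay 4.22 log2 units above the background limit (adjusted p = 3.14e-05, limma). Flt1 (VEGFR1) binds VEGF-A, VEGF-B and placental growth factor with a weaker kinase, and its soluble form acts as a decoy. Its levels were 12.92, 12.69 and 12.90, so that replicates 1 and 3 were close together and replicate 2 was lower. The mean was 12.84 ± 0.13 (SD, n = 3), 4.89 above the background limit (adjusted p = 2.81e-05, limma). The single value per gene does not separate the soluble form from the membrane-bound one.

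Flt4 (VEGFR3) is the receptor for VEGF-C and VEGF-D, best known from lymphatic endothelium. It had levels of 9.67, 9.22 and 9.56, with replicate 2 the lowest and a range of 1.36-fold over the arrays. The mean of 9.48 ± 0.23 (SD, n = 3) was 1.54 above the background limit (adjusted p = 0.000388, limma). Of the other lymphatic markers, the transcription factor Prox1 was at 8.80, 8.61 and 8.80, above the background limit by 0.79 (adjusted p = 0.000852, limma). The hyaluronan receptor Lyve1 averaged 7.96 and podoplanin (Pdpn) also 7.96, neither of which was called at the background limit. Mmrn1 averaged 6.58, below that limit by 1.37 log2 units (adjusted p = 8.9e-05, limma). Thus 1 of the 4 lymphatic markers was called above the background limit, against 49.6% of all genes. The summed level of the 4 markers was 976.8 to 1055.5 units over the arrays. Their median lay 0.01 log2 units above the background limit. What part lymphatic cells have in the level of Flt4 was not tested.

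The sequences upstream of the receptor genes Kdr and Flt1 and of the ligand genes Vegfa and Pgf are shown because the receptors lay at least 4.22 log2 units above the background limit, whereas Vegfa lay 0.83 above and Pgf 0.24 below it. Each line holds the 250 bases before the annotated start (RefSeq, GRCm38.p6), written 5′ to 3′ along the gene's strand. Capitals mark GGAA, the core of sites for ETS family factors, or TTCC, the same core on the other strand.
Kdr, chr5:75978456-75978705 (- strand): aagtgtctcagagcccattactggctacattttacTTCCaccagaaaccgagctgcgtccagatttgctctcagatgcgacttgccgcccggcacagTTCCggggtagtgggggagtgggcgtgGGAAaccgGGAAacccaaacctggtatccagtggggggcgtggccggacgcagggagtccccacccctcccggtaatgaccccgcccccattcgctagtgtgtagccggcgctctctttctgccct
Flt1, chr5:147726012-147726261 (- strand): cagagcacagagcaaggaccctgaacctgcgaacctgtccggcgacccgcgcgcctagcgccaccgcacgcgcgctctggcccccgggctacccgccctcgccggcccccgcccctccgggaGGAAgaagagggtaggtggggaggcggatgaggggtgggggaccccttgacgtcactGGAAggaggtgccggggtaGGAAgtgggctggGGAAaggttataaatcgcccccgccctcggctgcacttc
Vegfa, chr17:46032378-46032627 (- strand): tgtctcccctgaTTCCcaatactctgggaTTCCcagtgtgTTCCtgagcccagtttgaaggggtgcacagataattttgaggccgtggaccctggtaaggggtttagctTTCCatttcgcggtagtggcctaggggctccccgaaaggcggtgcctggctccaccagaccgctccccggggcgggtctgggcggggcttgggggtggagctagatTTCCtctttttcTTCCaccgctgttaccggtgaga
Pgf, chr12:85177314-85177563 (- strand): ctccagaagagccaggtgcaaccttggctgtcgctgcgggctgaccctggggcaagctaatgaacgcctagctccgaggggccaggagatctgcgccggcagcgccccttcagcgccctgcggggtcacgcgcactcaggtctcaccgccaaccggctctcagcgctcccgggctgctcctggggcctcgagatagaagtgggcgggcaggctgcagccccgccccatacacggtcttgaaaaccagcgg
For Vegfa and Pgf the first of 2 annotated windows is shown. The other window lies downstream of the printed start for both genes (chr17:46025164-46025413 and chr12:85175983-85176232, - strand). The annotated spans of Kdr, Flt1 and Pgf reach further upstream than these windows, so other transcript models of the same genes start elsewhere.

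GGAA was found 4 times upstream of Kdr, 4 times upstream of Flt1, 6 times in the printed window of Vegfa and in neither window of Pgf, counting both strands. A match is a description of the letters and not a bound site. The core is short, and 93.4% of the 32851 promoter windows of the same length held at least 1 match, with a median of 3. In the other members it was present 4 times for Nrp1, 2 times for Flt4, and 1 time each for Nrp2, Vegfb and Vegfc. The longer word GGAAG, which contains GGAA, was found 3 times each in Flt1 and Nrp1, 1 time each in Kdr, Flt4 and Vegfa, and in 64.1% of all windows. Flt1 also held the core promoter word TATAAA at 31 bases before its start, which 12.4% of windows held. Among the members it alone held TGACGTCA, the cyclic AMP response element, 81 bases before its start, against 1.55% of windows. The core of the hypoxia response element, ACGTG or GCGTG, was found 2 times each upstream of Kdr, Nrp2 and Vegfb and 1 time each upstream of Flt1, Nrp1 and Pgf (printed window). It was not found in the windows of Flt4 or Vegfc or in the printed window of Vegfa, and 38.6% of all windows held it. The other window of Vegfa held it 2 times, but that window is not upstream of the printed start. GGGCGG, the GC box bound by SP1, was found upstream of every member, from 1 match for Nrp1 to 5 for Nrp2, except in the other window of Pgf, and in 32.7% of all windows.

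The neuropilins were both above the background limit. Nrp1, the coreceptor of Kdr for VEGF-A and a receptor for semaphorin 3A, had log2 levels of 12.61, 12.44 and 12.17. Replicate 1 was the highest and replicate 3 the lowest. Its mean was 12.41 ± 0.22 (SD, n = 3), a distance of 4.46 from the background limit (adjusted p = 3.08e-05, limma). Nrp2, known from veins and lymphatics as a coreceptor for VEGF-C and semaphorin 3F, had 10.57, 10.17 and 10.29. Replicate 1 was again the highest, while replicate 2 was the lowest. The mean of 10.34 ± 0.20 (SD, n = 3) was 2.39 above the background limit (adjusted p = 8.88e-05, limma).

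The ligands lay from 0.24 log2 units below the background limit to 1.34 above it, and their SDs were at most 0.06. Vegfa, which encodes the principal angiogenic ligand and is a classic target of hypoxia-inducible factors, had levels of 8.81, 8.73 and 8.81. Replicates 1 and 3 carried the same value. The mean of 8.78 ± 0.04 (SD, n = 3) was 0.83 above the background limit (adjusted p = 0.000401, limma), or 440.4 units. Vegfb, a ligand of Flt1 linked to fatty acid uptake by endothelium, was at 9.28 in all 3 arrays, 1.34 above the limit (adjusted p = 9.47e-05, limma).

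Vegfc and Pgf did not pass the background limit. Vegfc, the ligand of Flt4, had 7.93, 7.93 and 8.04, so that only replicate 3 was above 7.95. Its mean of 7.97 ± 0.06 (SD, n = 3) was not called on either side (adjusted p = 0.76, limma), and without replicate 3 it was 0.01 under the limit. Pgf, which encodes placental growth factor and binds Flt1, was at 7.71 in all arrays (208.7 units). It was called below the background limit by 0.24 log2 units (adjusted p = 0.0188, limma) and above 100 units by 1.06 (adjusted p = 0.000108, limma). A level under the limit does not show that a gene is silent.

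The other ligand of Flt4, Vegfd, was looked up after the values had been seen. It had 8.24, 9.05 and 8.27, with replicate 2 higher than the other arrays by up to 1.76-fold. Its mean of 8.52 ± 0.46 (SD, n = 3) was called above 100 units (adjusted p = 0.000957, limma) but not above the background limit (adjusted p = 0.0532, limma). Without replicate 2 it was 0.31 log2 units above that limit and called (adjusted p = 0.0164, limma). Without replicate 1 it was 0.71 above and without replicate 3 0.70 above, not called in either case (adjusted p = 0.0881 and 0.0917, limma).

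Cells that produce VEGF-A could be present in the sort, and their markers were therefore read beside the ligands. Of 4 podocyte markers measured, Synpo (8.32 ± 0.14) was called above the background limit, Nphs1 (7.69) and Ptpro (7.13) were below it and Wt1 (8.11) was not called. Of 6 markers of the thick ascending limb, 4 were above, and their summed level was 5250.4, 3062.3 and 2211.3 units in replicates 1, 2 and 3. Umod, the Tamm-Horsfall gene, and Slc12a1, the sodium-potassium-chloride cotransporter gene, had the widest ranges of the 6, Cldn10 had 8.76, 9.08 and 8.50 and Cldn16 had 7.07, 7.34 and 7.34, while Kcnj1 (8.84) and Ptger3 (8.14) had the same value in all arrays. Of 6 collecting duct markers 3 were above (summed level 1618.9 to 1886.9 units), and of 6 proximal tubule markers 2 were above, with a summed level of 1260.8 units in every array. Each of the 6 proximal tubule markers had the same value in all arrays, and their median lay 0.35 log2 units below the background limit. The counts of markers above this limit are to be read against the 49.6% of all genes called above it. What part such cells have in the level of Vegfa was not tested beyond these values.

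The equal values of the ligands are a feature of the whole table. The same value in all 3 arrays was found for Vegfb and Pgf and for 46.3% of all genes. An SD of 0 was not read as equal RNA in the samples. The p-values of Vegfb and Pgf therefore rest on the variance taken from other genes and not on their own spread. With the default limma prior their adjusted p at the background limit was 1.11e-10 and 1.89e-09 (limma). All 5 receptors and neuropilins had 3 different values, as had 24.0% of all genes. Their SDs were 0.13 to 0.23, against a median of 0.16 among genes with 3 different values, and 17.8% of all genes had an SD at least as large as that of Flt1.

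All 5 receptors and neuropilins were highest in replicate 1. The lead of replicate 1 over the next array was 0.29 log2 units for Kdr, 0.28 for Nrp2, 0.17 for Nrp1, 0.11 for Flt4 and 0.02 for Flt1, so that for Flt1 it was negligible. Replicate 1 remained the highest for all 5 after median centring and after quantile normalization. Among genes with 3 different values 35.5% were highest in replicate 1, 33.0% in replicate 2 and the rest in replicate 3. Replicate 1 alone was highest for 13.2% of all genes and for 20.6% of genes above the background limit. The lowest array was replicate 3 for Kdr and Nrp1 and replicate 2 for Flt1, Flt4 and Nrp2. None of the 4 ligands had its single highest value in replicate 1.

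Of 8 pan-endothelial markers 6 were highest in replicate 1, among them the endoglin gene Eng (12.08, 11.64 and 11.49) and the cadherin gene Cdh5 (12.92, 12.65 and 12.57). For Tek (12.91, 12.58 and 12.90), also among the 6, replicates 1 and 3 were nearly equal. Emcn was highest in replicate 2 (13.21, 13.24 and 13.21), and Egfl7 was at 11.71 in all arrays. The summed level of these 8 markers was 41929.7 units in replicate 1, 36963.5 in replicate 2 and 37591.3 in replicate 3. Of 6 thick ascending limb markers 2 were highest in replicate 1, namely Umod (11.61, 10.40 and 9.49) and Slc12a1 (9.68, 8.07 and 7.81). Of the other 4, Cldn10 was highest in replicate 2, Cldn16 was lowest in replicate 1, and Kcnj1 and Ptger3 had the same value in all arrays. Replicate 1 was also highest for 1 of 6 collecting duct markers and 1 of 7 pericyte and smooth muscle markers, and for 0 of the lymphatic, podocyte, proximal tubule, fibroblast and macrophage markers. What part the cell makeup of the pools has in the array pattern was not tested.

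**Figure D2:**
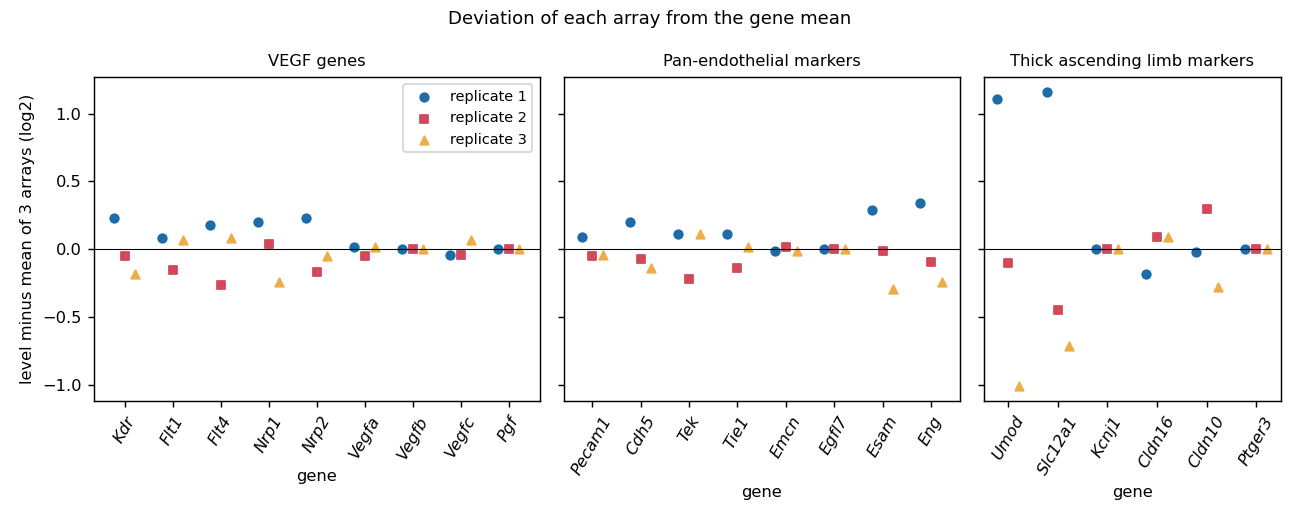
Level of each gene in each array minus its mean over 3 arrays (y axis, log2 units) for the VEGF genes, pan-endothelial markers and thick ascending limb markers (x axes, genes), with 1 symbol per array. Replicate 1 is highest for the 5 receptors and neuropilins and for 6 of 8 pan-endothelial markers, and the widest spread is that of Umod and Slc12a1.

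The labelled cell type was checked against its markers, and all 8 pan-endothelial markers were called above the background limit, as were 49.6% of all genes. Tek, whose promoter drove the sort, is among these 8. None of 7 pericyte and smooth muscle markers was, with 3 below and 4 not called, and none of 6 macrophage markers was, with 4 below and 2 not called. Of 6 fibroblast markers 2, the collagen genes Col1a1 and Col3a1, were above and 4 below. Tubule markers were above in part: 4 of 6 for the thick ascending limb, 3 of 6 for the collecting duct and 2 of 6 for the proximal tubule. Umod averaged 1448.1 units, with 3121.7, 1348.4 and 721.4 units in replicates 1, 2 and 3.

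Genes whose products act with the receptors were mostly above the background limit, 14 of 15 measured, with none below. Of all genes, 49.6% were called above and 38.0% below this limit. Cdh5, the junctional cadherin that associates with Kdr, averaged 12.71 ± 0.18 (SD, n = 3). Ptprb, the endothelial phosphatase that acts on Kdr and Tie2, averaged 12.82 ± 0.12, with 12.92, 12.69 and 12.84 in replicates 1, 2 and 3. Ptpn1, another phosphatase of Kdr, averaged 9.15 ± 0.17. Ptprj, a phosphatase that also acts on Kdr, had 9.13, 8.41 and 8.15 and was the 1 gene not called (adjusted p = 0.0557, limma). The median of the list lay 1.84 log2 units above the background limit.

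Of 13 neuropilin partners, 11 were above the background limit and 2 below, against 49.6% and 38.0% of all genes. Sema3a (8.79) and Sema3d (10.90), class 3 semaphorins, had the same value in all arrays, and Sema3b averaged 8.13 ± 0.04. Sema3c and Sema3e, both at 6.72, were called below the background limit and were not called at 100 units (adjusted p = 0.25 and 0.301, limma). The plexins, which carry the semaphorin signal into the cell, were all above.

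Of 10 genes for processing and capture of the ligands, 7 were above the background limit and 3 below. The shares over all genes were 49.6% above and 38.0% below. Adamts3, the protease that activates VEGF-C, averaged 8.42 ± 0.03, whereas Ccbe1, its cofactor, was at 7.61 in all arrays and called below (adjusted p = 0.00651, limma). The proprotein convertases Furin (8.98 ± 0.02) and Pcsk5 (8.34) were above, and the gelatinases Mmp2 (7.75) and Mmp9 (7.22) below.

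Downstream of the receptors, 30 of 37 listed signaling genes were measured, of which 23 were above the background limit, 2 below and 5 not called. Over all genes, 49.6% were above and 38.0% below. Plcg1, the phospholipase that binds activated Kdr, was at 10.57 in all arrays. Prkca (7.38), a protein kinase C, was below, and Prkcb (7.97) and the sphingosine kinase Sphk1 (255.7 units) were not called. Src (7.87) and Nfatc2 (7.80) were not called either, and the adaptor Sh2d2a (7.19) was below. The other 7 listed genes had no probe set naming them alone.

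Among 15 genes that VEGF is known to induce in endothelial cells, 12 were above the background limit, 2 below and 1 not called. For comparison, 49.6% of all genes were above and 38.0% below. Esm1, an endothelial proteoglycan, had 12.61, 12.06 and 12.14 in replicates 1, 2 and 3. The tip cell gene Dll4 was at 9.12 and the apelin gene Apln at 8.59 in all arrays, while Angpt2 averaged 11.08 ± 0.18. The nuclear receptor Nr4a2 (7.74) and tissue factor F3 (7.01) were below, and Nr4a1 (7.85) was not called. No condition with altered VEGF was measured, so these are levels and not responses.

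Regulators of the VEGF genes were above the background limit in most cases. Of 9 oxygen-dependent regulators of Vegfa, 8 were above and 1 below. Epas1, the HIF-2 alpha gene, had 12.39, 12.15 and 12.17, and Hif1a was at 11.31 and its partner Arnt at 10.02 in all arrays. Vhl, which targets HIF for degradation, averaged 9.11 ± 0.07, and Hif1an, the asparaginyl hydroxylase of HIF, was below at 7.67 (adjusted p = 0.0126, limma). Of 14 transcription factors that act on the receptor genes, 12 were above and 2 below. The ETS factors Erg, Fli1 and Ets1 averaged 11.44 ± 0.10, 11.22 ± 0.04 and 10.28 ± 0.19, whereas Etv2 (7.67), an ETS factor of the embryonic vasculature, and the forkhead factor Foxc1 (7.30) were below. The shares in these lists are to be read against the 49.6% of all genes above the limit.

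**Figure D3:**
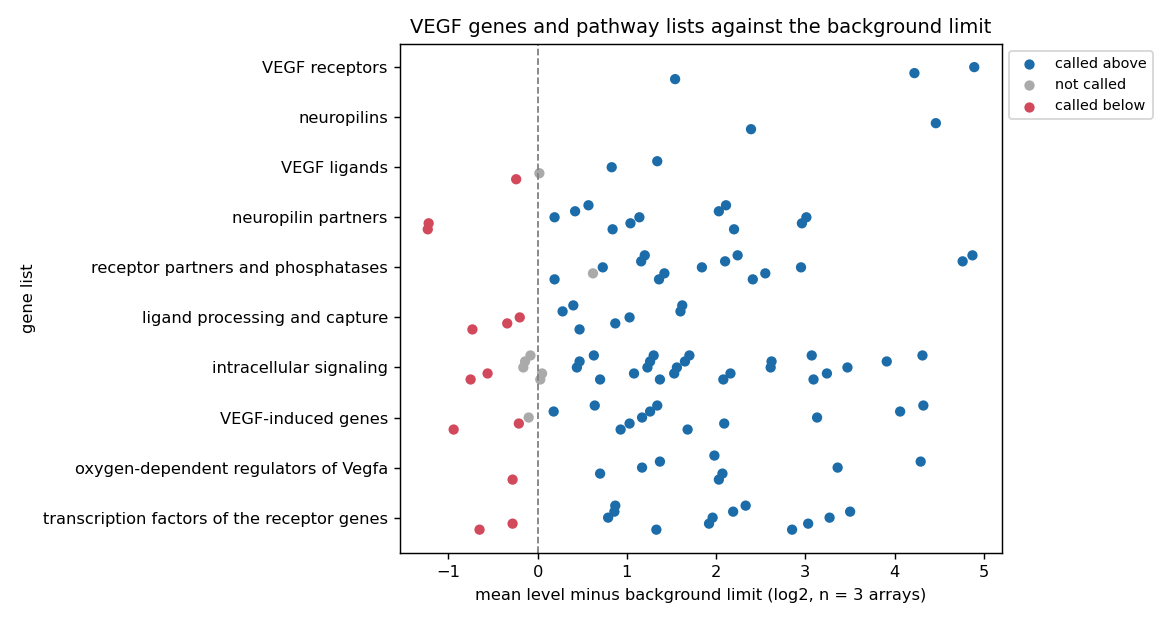
Mean log2 level over 3 arrays minus the background limit (x axis) of every measured gene in the VEGF sets and 7 pathway lists (y axis), with 1 point per gene and the colour giving the limma call. The 5 receptors and neuropilins lie 1.54 to 4.89 above the limit, while the ligands lie from 0.24 below it to 1.34 above it.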

How the data were processed

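RNA of sorted cells was amplified in 1 round with the NuGEN WT-Ovation Pico system and hybridized to 1-color Affymetrix Mouse Gene 1.0 ST arrays. The authors deposited 1 log2 level for each probe set and array. Affymetrix Expression Console is named in the submitters' processing notes, and RMA normalization with GeneSpring in the study's text, a method that corrects background, equalizes the arrays and summarizes probes. The version of Expression Console and a genome build: not given in the sources used here. Array medians differed by at most 0.03 log2 units. The number of arrays limits the precision.

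Of 35557 probe sets, 21789 named 1 gene, 1621 several and 12147 none. Symbols were updated through Entrez identifiers to RefSeq (GRCm38.p6), with 99.6% matched. Each gene was represented by its highest probe set. limma (lmFit with an intercept only) was fitted to log2 level minus the limit over all 19938 genes, two-sided, with Benjamini-Hochberg adjustment and a threshold of 0.05. Because many genes had equal values in all arrays, the prior variance was estimated from genes with 3 different values and applied to all. The fit was tested on simulated data at the limit of 100 units, with SDs drawn from genes with 3 different values. That test covered neither genes with equal values in all arrays nor the background limit. For a single gene, an exact sign-flip test on 3 arrays could not go below p = 0.25. Alternatives changed the limits, probe set rule, normalization and prior, or left out 1 array.

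The members and lists were chosen with earlier results of these data known. Named genes were all members, the first 4 measured genes of each pathway list, and up to 3 more on the other side of the background limit from most of their list. Cell type markers were taken from marker lists, with those given by value chosen after their values were seen, as was Vegfd. Genes were not matched to members by pattern over 3 arrays. Promoter windows were found for all 9 members in the RefSeq table. R 4.3.3, limma 3.58.1, Python 3.11.15, numpy 2.4.6, pandas 2.3.3 and matplotlib 3.10.9 were used.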

Additional observations from a re-analysis of the deposited data

How the results depend on the processing

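The 9 VEGF genes above 100 units became 8 with a limit of 200 units, where Pgf was 0.06 above it (adjusted p = 0.372, limma), and remained 9 under the other alternatives. The 7 genes above the background limit became 8 with the 90th percentile and 6 with the 99th percentile, and their number stayed 7 under the others, including each array left out in turn. The calls of Kdr, Flt1, Flt4, Nrp1, Nrp2 and Vegfb were the same under every alternative. Vegfa was 0.06 above the limit and no longer called with the 99th percentile (adjusted p = 0.418, limma). Vegfc was called above with the 90th percentile (0.36), and called below with the 99th percentile (-0.75, adjusted p = 0.00057, limma). It lay under the limit, still not called, with olfactory receptors only (-0.03) and without replicate 3 (-0.01, the range being -0.01 to 0.05 with each array left out in turn). Pgf was above the limit by 0.10 with the 90th percentile and not called (adjusted p = 0.195, limma). In all, 200 of 207 comparisons kept both the side of the limit and the call. These include the alternative probe set rules, which could hardly change a call. Every member had exactly 1 probe set, so its values stayed as they were. Leaving out an array could not move the levels of Vegfb and Pgf, which were equal in all arrays. Median centring could move a level only slightly, since array medians differed by at most 0.03 log2 units. Genes of the pathway lists above the background limit numbered 87, and 65 to 94 under the alternatives. Leaving out 1 array moved the mean of a member by at most 0.13 log2 units. No paired analysis was possible because there was only 1 group.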
